A study of Mus musculus with 22 samples.

Results

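Granulocyte-monocyte progenitors (GMP) and megakaryocyte-erythroid progenitors (MEP) are the sorted bone marrow populations in which the myeloid branches of blood formation have separated. The 12 RNA-seq libraries of these populations, of the 22 libraries in the series, were read as pairs because each of 6 mice had given both, so that the difference between MEP and GMP could be measured within an animal and then compared between genotypes. The knockout (KO) mice were Arid1a f/f;Mx1-Cre+ and the wild-type (WT) mice were their Arid1a f/f;Mx1-Cre- littermates, with 3 mice of each genotype. The floxed allele, in which exon 9 is flanked by loxP sites and which had been crossed onto C57BL/6, was carried by both groups, and both received 5 doses of poly(I:C) on alternate days at 8 to 14 weeks of age. Cells were sorted 4 weeks later. Mx1-Cre is driven by an interferon-inducible promoter that is also active outside the blood, and the control mice had no Cre, so an effect of Cre and an effect of the deletion cannot be told apart. GMP were gated as Lin-Kit+Sca1-CD34+FcγRII/IIIhi cells and MEP as Lin-Kit+Sca1-CD34-FcγRII/III- cells.

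ARID1A is the large DNA-binding subunit of the BAF form of the SWI/SNF complex, which moves nucleosomes and keeps enhancers accessible. In the textbook scheme GMP give rise to neutrophils and monocytes under C/EBPα and PU.1, and MEP give rise to red cells and megakaryocytes under GATA1 and KLF1. Each branch switches on its own genes and represses those of the other, and the MEP minus GMP contrast of a gene measures this restriction.

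Between 41497753 and 60703872 estimated counts fell on genes in each library (median 52408216), and the ranges of the 4 groups overlapped. All levels are counts scaled to the size of the library (CPM), listed for WT mice 300, 305 and 309 and then for KO mice 301, 304 and 308. Arid1a had 310.0, 415 and 338 CPM in WT GMP and 242, 286 and 272 CPM in KO GMP, and 301, 285 and 294 CPM in WT MEP against 278, 253 and 263 CPM in KO MEP. Every KO library was below every WT library of its population, but a message that lacks exon 9 alone is still counted, so these counts do not check the deletion. The gates carried their markers. Mpo, the peroxidase of primary granules, had 25850, 24380 and 23140 CPM in WT GMP and 40.1, 14.6 and 30.99 CPM in WT MEP, and Klf1, a red cell transcription factor, had 382, 400.2 and 327 CPM in WT MEP and 3.87, 3.47 and 3.93 CPM in WT GMP. The low level of GMP genes in MEP differed between animals, as Cd34 had 19.01, 1.39 and 6.41 CPM in WT MEP and 5.73, 9.89 and 10.4 CPM in KO MEP. WT mouse 305 had Xist (1712 CPM in GMP) and at most 3.95 CPM over the Y-linked genes, KO mouse 304 had little of either (at most 1.56 and 3.38 CPM), and the other 4 mice had 191.7 to 223.1 CPM over the Y-linked genes.

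The question was whether the loss of Arid1a changes the distance between the branches. For each gene, the MEP minus GMP difference of log2 expression in KO mice was set against that in WT mice, which is called the difference here. A positive difference means that the gene moved toward MEP in KO mice, and a negative one that it moved toward GMP. Of 17598 genes tested, 4248 had a difference at a false discovery rate (FDR) of 0.1 (24.1%), with 2016 positive and 2232 negative (edgeR's quasi-likelihood test with the mouse as a block and Benjamini-Hochberg adjustment, which holds for all adjusted p-values below). A gene was called when the difference also exceeded 0.5 in size and its mean exceeded 1 FPKM, the thresholds the study used. There were 989 genes called higher (5.62% of those tested) and 1101 called lower (6.26%). Together they made up 17.1% of the 12200 genes over 1 FPKM. The median difference of all tested genes was 0.03 and the median standard error of a difference 0.11, and in these bulk samples a change in the share of a cell type and a change in RNA per cell cannot be told apart.

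A gene was taken as branch-restricted when the mean of its WT and KO contrasts was at least 2 in size on the log2 scale (4 in fold) with an FDR of 0.1 and a mean over 1 FPKM. The mean of both genotypes was used because a choice on the WT libraries alone would favour genes whose contrast then shrinks. Just inside the limit were Sept6 (-2.001) and Lfng (2.001), and just outside was A230056P14Rik (1.996). On the GMP side there were 1382 such genes and on the MEP side 548. Restriction was gained, with a called difference that widened the contrast, by 434 genes of the GMP side (31.4%) and 203 of the MEP side (37.0%). It was lost, with a called difference that narrowed the contrast, by 143 genes of the GMP side (10.3%) and 46 of the MEP side (8.39%). Of all 12200 genes over 1 FPKM, restricted or not, 989 were called higher and 1101 lower (17.1% together). The shares that lost restriction lie near those of all genes in the same direction, and are not read as a result. Another 1264 called genes were not branch-restricted. On both sides gains outnumbered losses. Without mice 304 and 305, whose Xist and Y-linked counts differ from those of the other mice, 3848 genes passed the FDR, with 549 gained and 119 lost on the GMP side and 205 gained and 51 lost on the MEP side.

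**Figure D1:**
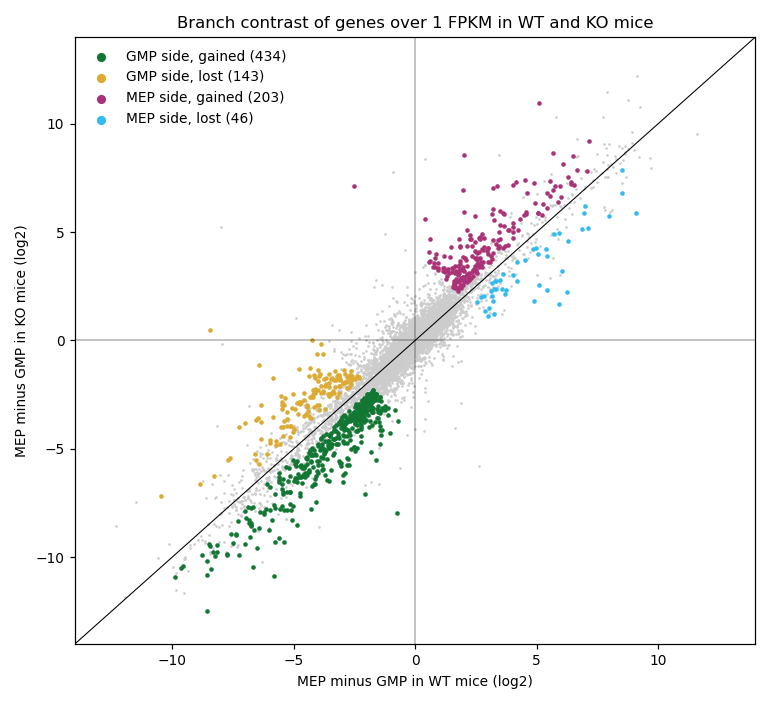
MEP minus GMP contrast (log2) in WT mice on the x axis and in KO mice on the y axis for the 12200 genes over 1 FPKM, with the line of equal contrast. Green (434 genes) and purple (203) points gained restriction and lie farther from 0 in KO than in WT, and yellow (143) and blue (46) points lost it.

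The median contrast of the MEP side separated the genotypes and that of the GMP side did not. The median contrast over the 548 MEP-side genes was 2.97, 3.08 and 2.94 in the WT mice and 3.57, 3.63 and 3.57 in the KO mice, so that every KO mouse was above every WT mouse. Over the 1382 GMP-side genes it was -3.26, -3.96 and -3.51 in the WT mice and -3.83, -3.79 and -3.59 in the KO mice, and these ranges overlapped. WT mouse 305, which had the lowest levels of Mpo, Elane and Cd34 of the WT MEP libraries, had the widest contrast of all 6 mice on this side, and the part of these low levels in the result was not tested. The median difference was -0.32 on the GMP side, with 878 genes below 0 and 504 above, and 0.47 on the MEP side, with 388 genes above 0 and 160 below.

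The KO effect in each population was then read for these genes. KO effects were fitted apart, with 913 genes higher (5.57% of 16383 tested) and 1004 lower (6.13%) in KO GMP, and 659 higher (4.18% of 15777) and 770 lower (4.88%) in KO MEP. Among the 434 genes that gained GMP restriction, 209 were called higher in GMP alone, 99 lower in MEP alone and 38 in both populations, and 88 in neither. Among the 203 that gained MEP restriction, 94 were called higher in MEP alone, 54 lower in GMP alone and 18 in both. Of the 143 that lost GMP restriction, 81 were lower in GMP alone and 25 higher in MEP alone, and of the 46 that lost MEP restriction, 20 were lower in MEP alone and 14 higher in GMP alone. A KO effect called in one population is not by itself a difference, and it is the difference that was tested for every gene in these counts. A KO effect was called only where the mean in that population exceeded 1 FPKM. Both populations exceeded it for 266 of the 434 genes that gained GMP restriction, 49 of the 143 that lost it, 121 of the 203 that gained MEP restriction and 23 of the 46 that lost it, so the split by population is partly set by this filter.

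**Figure D2:**
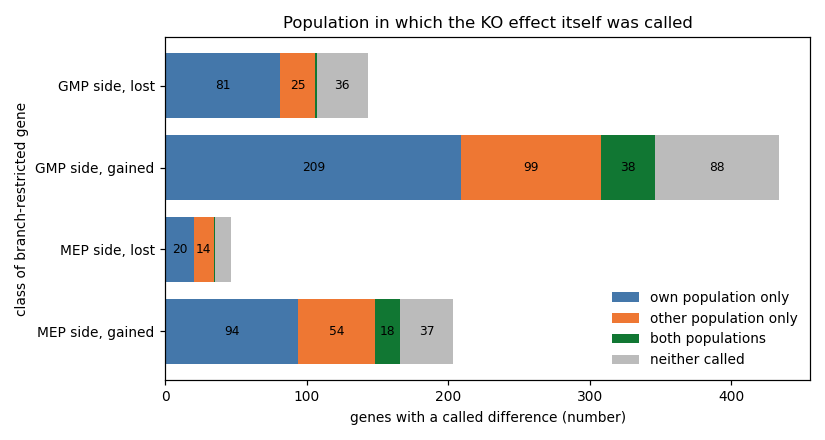
Number of branch-restricted genes with a called difference (x axis) in each class (y axis), split by the population in which the KO effect itself was called in the expected direction. The own population, GMP for the GMP side and MEP for the MEP side, gives 81, 209, 20 and 94 genes, but it is the one of higher level, and genes at 1 FPKM or less in the other population could not be called there.

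Some genes moved in opposite directions in the 2 populations. Of 14899 genes tested in both, 115 were called in each with opposite signs (0.772%), with 54 lower in KO GMP and higher in KO MEP, and 61 higher in KO GMP and lower in KO MEP. The sign of their difference follows from how they were chosen. The genes named from them were further limited to those whose differences did not overlap between WT and KO mice. The 54 genes had a median log2 fold change of -0.84 in GMP and 0.95 in MEP. Of them 18 were restricted to the MEP side and 1 to the GMP side, and in 20 the WT and KO contrasts had opposite signs. The 61 genes had medians of 0.67 in GMP and -0.89 in MEP, with 38 on the GMP side and 1 on the MEP side, and the contrasts of 10 had opposite signs in WT and KO mice.

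Cnn3, which encodes the actin-binding protein calponin 3 (chromosome 3 from 121426497 to 121458207), had the largest difference of the 54. It had 34.05, 28.4 and 39.4 CPM in WT GMP and 2.69, 1.68 and 4.97 CPM in KO GMP. In MEP it had 40.8, 50.9 and 41.3 CPM in WT and 146, 149 and 150.2 CPM in KO mice. The gene was about equal in the branches of WT mice, with a contrast of 0.39, and MEP-restricted in KO mice, with a contrast of 5.63, a difference of 5.24 (standard error 0.34, adjusted p = 4.75e-05). Nrgn, which encodes the calmodulin-binding neurogranin found in platelets (chromosome 9 from 37544492 to 37552904), had 14.9, 10.6 and 15.7 CPM in WT GMP and 2.24, 2.17 and 2.31 CPM in KO GMP. It had 12.3, 8.41 and 10.2 CPM in WT MEP and 41.5, 34.3 and 45.5 CPM in KO MEP. Its contrast turned from -0.41 to 4.17, a difference of 4.58 (standard error 0.14, adjusted p = 5.63e-06). In neither gene did WT and KO libraries of a population overlap. Capn5, a calcium-dependent protease (chromosome 7 from 98121559 to 98178274), went from 17.8, 11.04 and 16.9 to 3.42, 2.05 and 3.27 CPM in GMP and from 23.6, 24.1 and 21.6 to 74.4, 67.2 and 83.6 CPM in MEP (difference 4.08, standard error 0.23, adjusted p = 3.18e-05). Eps8, a regulator of actin capping and bundling, differed mainly in MEP, where it had 0.651, 0.649 and 0.395 CPM in WT and 6.25, 5.04 and 3.57 CPM in KO mice, against 5.005, 5.23 and 4.79 (WT) and 4.05, 3.46 and 2.87 (KO) CPM in GMP (difference 3.65). Mgst3, a microsomal glutathione S-transferase, had log2 fold changes of -0.94 in GMP and 1.89 in MEP, and Kctd14 had -1.42 and 1.56.

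The leading genes in the other direction included a regulator of glycolysis, actin-binding proteins and an oxidase subunit. Pfkfb4, a kinase and phosphatase that sets the level of the glycolytic activator fructose 2,6-bisphosphate (chromosome 9 from 108991778 to 109032228), had 21.6, 20.5 and 18.04 CPM in WT GMP and 57.2, 74.96 and 59.3 CPM in KO GMP. In MEP it had 7.21, 8.02 and 6.69 CPM in WT and 2.32, 1.91 and 2.80 CPM in KO mice, so its contrast widened from -1.46 to -4.76 (difference -3.30, standard error 0.20, adjusted p = 3.76e-05). Cyba, which encodes the p22phox subunit of the phagocyte NADPH oxidase (chromosome 8 from 122424776 to 122432930), rose from 95.9, 88.3 and 92.6 to 193, 211 and 184 CPM in GMP and fell from 39.4, 31.9 and 35.8 to 11.9, 9.10 and 12.4 CPM in MEP. The difference was -2.77 (standard error 0.15, adjusted p = 3.18e-05), with no overlap in either population. Cotl1, the actin-binding coactosin-like protein, rose from 168, 159.7 and 158 to 412, 421 and 410.3 CPM in GMP and fell from 31.3, 17.4 and 22.8 to 9.18, 9.34 and 10.8 CPM in MEP (difference -2.61). Gsn, the actin-severing gelsolin, had log2 fold changes of 1.71 in GMP and -1.34 in MEP, Atp11a, a phospholipid flippase, 1.20 and -1.23, and Vsig10 0.57 and -2.07. In Atp11a the rise in GMP was largest in KO mouse 304 (88.2, 209 and 95.96 CPM against 50.8, 74.01 and 47.8 CPM in WT GMP).

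**Figure D3:**
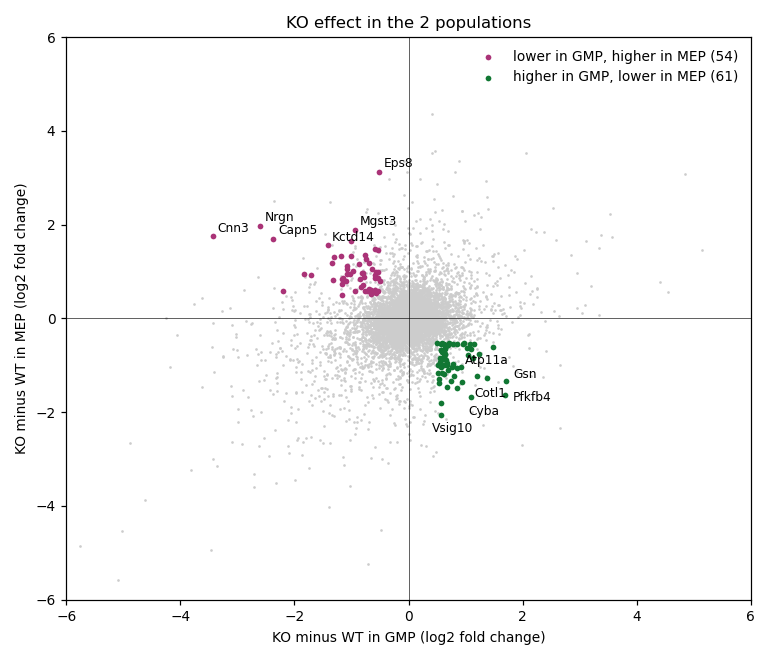
KO minus WT log2 fold change in GMP (x axis) and in MEP (y axis) for 11772 genes over 1 FPKM tested in both populations, of which 4 lie outside the axes. Purple marks the 54 genes lower in GMP and higher in MEP and green the 61 genes higher in GMP and lower in MEP, and the 12 named genes are labelled.

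The promoter sequence of 4 of the 12 named opposite-direction genes is shown, those with 1 annotated RefSeq start and 200 bases free of any annotated transcript of the gene before it. The sequences are from RefSeq on build GRCm38.p6, on the strand of the gene, 5′ to 3′. Capitals mark matches, on either strand, to the letters of 5 motifs of blood transcription factors, which are AGATAA for the GATA factors, CCACCC for the KLF factors, GAGGAA for PU.1, TGTGGT for RUNX factors and TTNNGCAA for C/EBP factors. Cnn3 (chr3:121426297-121426496, plus strand) and Mgst3 (chr1:167393842-167394041, minus strand) were lower in KO GMP and higher in KO MEP, and Cyba (chr8:122432941-122433140, minus strand) and Atp11a (chr8:12756814-12757013, plus strand) went the other way.
Cnn3: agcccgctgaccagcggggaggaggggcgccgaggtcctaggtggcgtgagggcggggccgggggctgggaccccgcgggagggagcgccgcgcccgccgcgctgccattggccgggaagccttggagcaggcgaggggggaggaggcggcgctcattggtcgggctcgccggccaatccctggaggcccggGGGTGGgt
Mgst3: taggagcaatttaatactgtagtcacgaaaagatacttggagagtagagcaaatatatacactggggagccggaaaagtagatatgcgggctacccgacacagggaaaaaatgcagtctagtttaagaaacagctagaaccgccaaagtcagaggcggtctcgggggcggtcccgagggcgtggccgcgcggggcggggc
Cyba: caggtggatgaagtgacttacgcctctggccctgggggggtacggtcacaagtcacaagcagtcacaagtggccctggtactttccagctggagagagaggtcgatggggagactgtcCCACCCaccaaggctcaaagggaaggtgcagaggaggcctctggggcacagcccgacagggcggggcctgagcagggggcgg
Atp11a: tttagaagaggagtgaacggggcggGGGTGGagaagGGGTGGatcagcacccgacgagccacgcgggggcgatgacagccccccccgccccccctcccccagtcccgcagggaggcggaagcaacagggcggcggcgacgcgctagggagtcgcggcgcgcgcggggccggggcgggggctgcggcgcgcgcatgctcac
The Cnn3 and Cyba stretches held 1 match each and that of Atp11a held 2, all to the KLF letters, and that of Mgst3 held none. These letters are frequent. In the 250 bases before the first listed start of 8554 of the 10693 protein-coding genes over 1 FPKM, those for which a sequence was given, 32.3% had a KLF match. This compares with 44.4% of 36 genes lower in GMP and higher in MEP and 52.5% of 40 genes higher in GMP and lower in MEP, and with 39.4% of all GMP-side and 42.3% of all MEP-side genes. The PU.1 letters stood in 22.1% of all these windows, in 29.8% of the 336 genes that gained GMP restriction and in 29.2% of the 967 GMP-side genes at large, in 15.2% of the 145 that gained MEP restriction, 29.0% of the 31 that lost it and 18.3% of the 350 MEP-side genes at large. The GATA letters stood in 6.00% of all windows, in 12.1% of 99 genes that lost GMP restriction and 7.65% of the GMP side at large, and in 8.28% of those that gained MEP restriction, which was below the share of the MEP side at large. RUNX letters stood in 10.7% of all windows and in 6.45% to 13.1% of the 4 classes, and C/EBP letters in 7.39% and in 8.08% to 11.0%. A match is a run of letters and not a bound site.

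Of the 434 genes that gained GMP restriction, 247 were called higher in KO GMP, alone or with a fall in MEP. Of the 6 with the largest differences, 3 (Mrgpra2a, Dmkn and Oosp1) had at most 3 counts in total in a group of 3 MEP libraries, so the size of their difference is not fixed by the counts. Oosp1 had 1.70, 1.86 and 1.37 CPM in WT GMP and 17.4, 27.7 and 17.3 CPM in KO GMP. Dmkn (15.2, 14.9 and 11.8 against 12.3, 18.1 and 10.7 CPM) and Mrgpra2a (5.09, 3.59 and 3.87 against 5.41, 3.69 and 4.24 CPM), one of a family of near-identical receptor genes, overlapped between genotypes in GMP. Fcnb, which encodes the granule lectin ficolin B, rose from 10.5, 12.1 and 9.19 to 274, 548 and 297 CPM in GMP, with 0.721, 0.0232 and 0.256 (WT) and 1.11, 0.506 and 1.25 (KO) CPM in MEP (difference -3.66, standard error 0.95, adjusted p = 0.0301). Without mouse 300 its difference was -2.39 (adjusted p = 0.320). Cd300lf, an inhibitory receptor of myeloid cells, rose from 0.865, 0.813 and 0.820 to 13.2, 26.2 and 18.7 CPM in GMP (difference -3.90, standard error 0.64, adjusted p = 0.00373). Bhlhe40, a transcriptional repressor, had 4.74, 5.13 and 4.37 CPM in WT GMP and 25.5, 36.4 and 26.9 CPM in KO GMP, and 1.14, 1.21 and 1.04 (WT) and 0.134, 0.374 and 0.157 (KO) CPM in MEP (difference -5.01, standard error 0.24, adjusted p = 2.40e-05). It was the only 1 of these 6 whose KO effect was called in GMP and past an FDR of 0.1 with the opposite sign in MEP (log2 fold change -2.34, adjusted p = 0.00425), where its mean was below 1 FPKM.

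**Figure D4:**
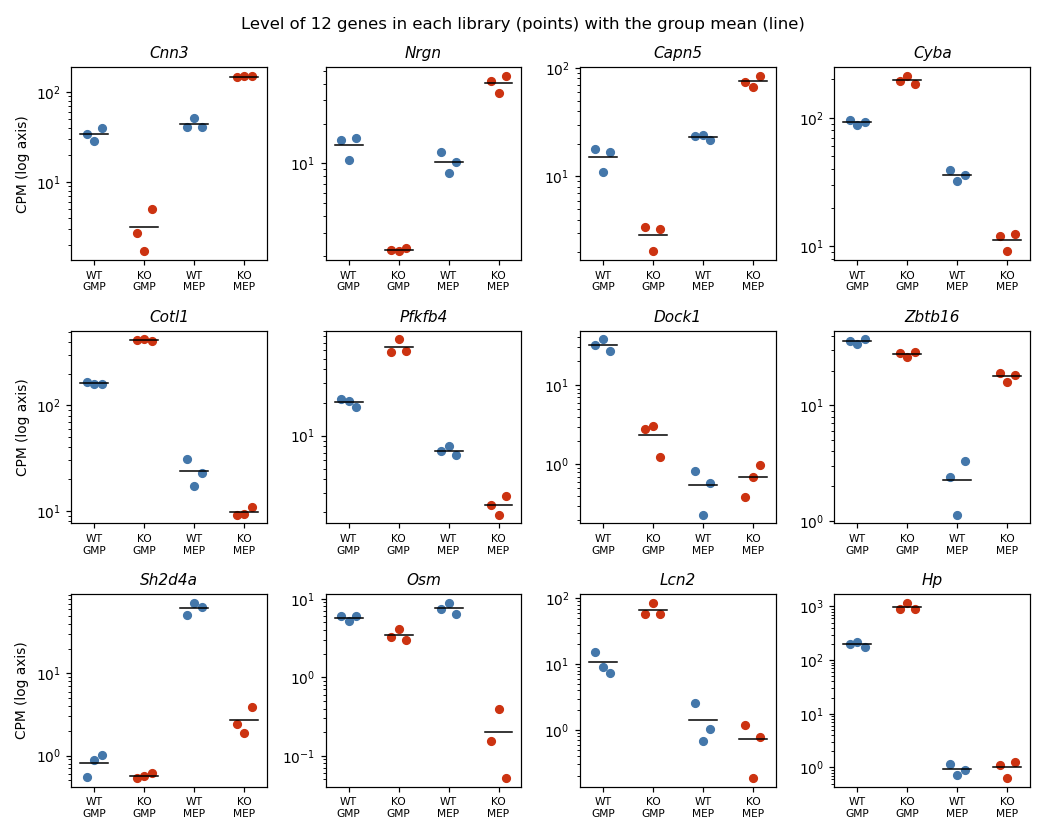
Level in CPM (log axis) of 12 genes in each of the 12 libraries, blue for WT and red for KO mice, with a line at the mean of each group of 3. In Cnn3, Nrgn and Capn5 KO GMP is below and KO MEP above WT, in Cyba, Cotl1 and Pfkfb4 the reverse holds, and Sh2d4a and Osm fall in MEP.

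Late neutrophil granule genes moved toward GMP. Of 20 listed genes 19 were tested (Ly6g was not) and 16 exceeded 1 FPKM. None was called higher and 10 were called lower, beside 17.1% of all genes over 1 FPKM called in either direction. The KO effect in GMP was called higher in 12 and lower in 2, beside 5.57% and 6.13% of the 16383 genes tested there. The median difference was -1.66 beside 0.03 for all genes. Their summed level was 700.4 to 881 CPM in WT GMP and 1911 to 2910 CPM in KO GMP, and 18.3 to 61.4 CPM in WT MEP against 12.5 to 23.0 CPM in KO MEP. The median contrast of the list was -2.38, -2.73 and -3.01 in the WT mice and -4.77, -6.57 and -4.52 in the KO mice, without overlap. Lcn2, the iron-binding lipocalin of specific granules, rose from 15.6, 9.16 and 7.32 to 57.5, 85.7 and 58.1 CPM in GMP and had 2.60, 0.672 and 1.02 (WT) and 1.19, 0.187 and 0.784 (KO) CPM in MEP (difference -3.58, standard error 0.60, adjusted p = 0.00416). Wfdc21, a small secreted protein, rose in GMP from 6.33, 8.09 and 4.31 to 30.9, 77.6 and 34.5 CPM (difference -3.50, standard error 0.97, adjusted p = 0.0372). Camp, the cathelicidin of specific granules, had 7.88, 1.01 and 2.36 (WT) and 7.51, 39.3 and 11.3 (KO) CPM, where WT mouse 300 exceeded KO mouse 301 (difference -3.24, standard error 0.83, adjusted p = 0.028). Wfdc21 lost its call without mouse 300 (adjusted p = 0.259).

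Primary granule and early GMP genes, all 16 of them GMP-restricted, moved in the same direction. Of them 12 were called lower and none higher, beside 17.1% of all genes over 1 FPKM called in either direction. Their median difference was -1.03. The list is a smaller change on a far higher level, with 37180 to 42450 CPM summed in WT GMP and 51000.0 to 58000.0 CPM in KO GMP, against 210.5 to 338 and 169 to 203 CPM in MEP. Its median contrast was -6.56, -7.79 and -6.74 in the WT mice and -8.49, -8.53 and -7.70 in the KO mice, so that WT mouse 305 fell within the KO range. Hp, the haemoglobin-binding haptoglobin, rose in GMP from 198, 219 and 178 to 892, 1172 and 879 CPM and stayed near 1 CPM in MEP (difference -2.18, standard error 0.36, adjusted p = 0.0036). Igfbp4, a binding protein of insulin-like growth factors, changed mainly in MEP, from 32.1, 14.8 and 29.4 to 4.96, 5.26 and 7.92 CPM, with 701, 624 and 642 (WT) and 808, 761 and 813 (KO) CPM in GMP (difference -2.30, standard error 0.27, adjusted p = 6.89e-04). Prss57, a granule serine protease, had a difference of -1.82 (standard error 0.44, adjusted p = 0.0214) and Nkg7, a membrane protein of cytotoxic granules, one of -1.76 (standard error 0.29, adjusted p = 0.00392). Elane, neutrophil elastase, rose in GMP (log2 fold change 0.75, adjusted p = 0.00168) with a difference of -0.87 (adjusted p = 0.0801), and the difference of Mpo, -0.89 (standard error 0.33, adjusted p = 0.105), did not pass.

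Monocyte and macrophage genes went both ways. Of 20 genes, 18 of them over 1 FPKM, 4 were called higher and 4 lower, beside 17.1% of all genes over 1 FPKM. The median difference was -0.17, and 0.44 without mouse 300. The median contrast of the list by mouse, at -5.36, -5.99 and -5.25 in WT and -5.22, -4.64 and -4.92 in KO mice, had the opposite sign of change to the median of the gene differences. Adgre1, which encodes the macrophage antigen F4/80, rose in GMP from 8.03, 10.3 and 9.30 to 93.8, 107 and 81.3 CPM (difference -1.58, standard error 0.33, adjusted p = 0.0308). Tgfbi, a secreted matrix protein, rose from 14.9, 20.8 and 14.4 to 199, 182 and 205 CPM (difference -1.85, standard error 0.39, adjusted p = 0.0131). Both also rose in MEP, by less and to at most 1.27 CPM. Ly86, a partner of the receptor RP105, fell in GMP from 17.1, 26.8 and 27.99 to 7.42, 3.99 and 10.3 CPM and lost restriction (difference 1.26, standard error 0.25, adjusted p = 0.00973). S100a4, at 1.25 CPM or less in every library, had a difference of 1.48 (standard error 0.47, adjusted p = 0.0624) that did not pass with DESeq2, without the mouse block, or without any 1 of mice 300, 304, 305, 308 and 309. Csf1r, the receptor of monocyte growth, had a difference of -0.12 (standard error 0.50, adjusted p = 0.909) and Irf8, the monocyte transcription factor, one of 0.36 (standard error 0.43, adjusted p = 0.63), both with large errors and at most 2.53 CPM in MEP.

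Among the genes that lost GMP restriction, Dock1, an activator of the GTPase Rac (chromosome 7 from 134670654 to 135173639), fell from 32.3, 37.7 and 27 to 2.81, 3.04 and 1.25 CPM in GMP with 0.827, 0.232 and 0.581 (WT) and 0.383, 0.693 and 0.975 (KO) CPM in MEP (difference 4.13, standard error 0.66, adjusted p = 0.00329). Scarf1, a scavenger receptor, fell from 13.4, 18.3 and 12.9 to 1.11, 2.43 and 1.502 CPM (difference 3.68, standard error 0.75, adjusted p = 0.0105). Diras2, a Ras-like GTPase, fell from 27.9, 13.9 and 24.7 to 2.10, 1.58 and 2.43 CPM (difference 3.37, standard error 0.36, adjusted p = 4.33e-04). In these 3 genes the KO effect in MEP did not pass an FDR of 0.1.

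Zbtb16 lost its restriction through MEP. It encodes the transcription factor PLZF (chromosome 9 from 48654297 to 48836222) and had 2.39, 1.14 and 3.28 CPM in WT MEP against 19.1, 16.1 and 18.2 CPM in KO MEP, while GMP had 36.2, 33.8 and 37.2 (WT) and 28.2, 26.2 and 28.8 (KO) CPM. Its contrast shrank from -4.02 to -0.64 (difference 3.38, standard error 0.26, adjusted p = 1.03e-04). Mmp28, a matrix metalloproteinase, had at most 3 counts over the 3 WT MEP libraries, so its difference is not given a size, and its GMP levels were 23.9, 24.1 and 22.04 (WT) and 16.9, 12.9 and 15.8 (KO) CPM.

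Basophil, mast cell and eosinophil genes, markers of cells that a GMP gate can hold, fell in GMP. Of 20 tested, 15 were called lower and 1 higher in KO GMP, beside 6.13% and 5.57% of the 16383 genes tested there. The 16383 include genes at 1 FPKM or less, which could not be called. Their summed level was 4502 to 7771 CPM in WT GMP and 1968 to 2795 CPM in KO GMP, against 492 to 713 and 518 to 594 CPM in MEP. Their median difference was 0.96, and 0.34 without mouse 308. Among the 19 over 1 FPKM the difference was called higher in 4 and lower in 3, beside 17.1% of all genes over 1 FPKM. Prss34, the basophil protease mast cell protease 11, had 121, 168 and 300.1 CPM in WT GMP and 5.93, 4.92 and 8.76 CPM in KO GMP, and with 0.809, 0.788 and 1.30 (WT) and 0.0383, 0 and 0.401 (KO) CPM in MEP its difference was 2.17 (standard error 0.72, adjusted p = 0.0746). That value turned to -0.44 without mouse 308, and did not pass without the mouse block (adjusted p = 0.223). Il5ra, the interleukin-5 receptor of eosinophils and basophils, fell from 9.46, 12.8 and 15.2 to 1.93, 3.83 and 2.58 CPM (difference 2.65, standard error 0.53, adjusted p = 0.00953). Fcer1a, the high-affinity IgE receptor, fell from 16.5, 22.3 and 20.3 to 3.13, 5.25 and 3.16 CPM (difference 2.19, standard error 0.77, adjusted p = 0.0873). Cd63, a tetraspanin of granules, fell in both populations and farther in MEP, from 26.5, 10.9 and 21.4 to 1.495, 1.24 and 2.18 CPM (difference -2.48, standard error 0.26, adjusted p = 3.96e-04). The part of these cells in the GMP losses was not tested.

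The leading genes that gained MEP restriction rose in MEP, and some also fell in GMP. Kcnip2, a potassium channel-interacting protein (chromosome 19 from 45791839 to 45816061), had 0.774, 1.11 and 0.906 CPM in WT MEP and 11.1, 10.4 and 10.2 CPM in KO MEP. With at most 0.343 CPM in GMP, its difference of 6.55 (standard error 0.84, adjusted p = 0.00113) rests on few GMP counts. Rab3il1, an exchange factor for Rab GTPases (chromosome 19 from 10001669 to 10038380), rose in MEP from 8.19, 19.1 and 7.78 to 63.9, 67.2 and 67.3 CPM and fell in GMP from 2.76, 3.29 and 2.29 to 0.516, 0.648 and 0.443 CPM (difference 4.97, standard error 0.28, adjusted p = 3.18e-05). Slc6a9, the GlyT1 transporter that brings in glycine for haem synthesis, rose in MEP from 2.69, 3.08 and 2.30 to 12.9, 20.4 and 11.7 CPM (difference 3.92, standard error 0.51, adjusted p = 0.00122). Cnn3 and Capn5, described above, were the other leading members. Tcf15, a transcription factor with few counts in GMP, had 0.739, 0.417 and 0.372 (WT) and 2.47, 2.32 and 3.59 (KO) CPM in MEP.

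All 29 megakaryocyte and platelet genes were tested, and the 19 over 1 FPKM could be called. Of these 14 were called higher and 1 lower, beside 17.1% of all genes over 1 FPKM called in either direction. The median difference of the 29 was 1.45 beside 0.03 for all genes. The median contrast was -1.24, -1.31 and -2.50 in the WT mice and -0.59, -0.21 and -0.64 in the KO mice, so the list lay on the GMP side in both genotypes, and closer to balance in KO. Summed levels in MEP were 166 to 243 CPM in WT and 308 to 353 CPM in KO mice, and in GMP 403 to 640 CPM in WT and 435 to 506 CPM in KO mice, where they overlapped. Pf4, platelet factor 4, had 23.7, 11.5 and 31.5 (WT) and 8.05, 9.14 and 11.9 (KO) CPM in GMP and 4.89, 1.90 and 1.37 (WT) and 4.41, 9.08 and 7.07 (KO) CPM in MEP (difference 2.51, standard error 0.51, adjusted p = 0.0106), and its WT and KO libraries overlapped in both populations. Selp, the P-selectin of platelet granules, differed by 2.92 (standard error 0.70, adjusted p = 0.0212) and Cavin2, a caveolar coat protein, by 2.35 (standard error 0.57, adjusted p = 0.0234). Itga2b, the platelet integrin αIIb, fell in GMP from 157, 98.1 and 184 to 74.8, 62.99 and 81.97 CPM and overlapped in MEP (difference 1.45, standard error 0.29, adjusted p = 0.00917).

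Of 34 globin and red cell membrane genes 31 were tested (Hbb-bh1, Hbb-y and Hba-x were not). In KO MEP 17 were called higher and 1 lower, beside 4.18% and 4.88% of the genes tested there. Those shares also count genes at 1 FPKM or less, which could not be called. The difference was called higher in 6 and lower in 1, beside 17.1% of all genes over 1 FPKM. The median difference was 0.50, and 0.15 without mouse 300. The median contrast was 5.66, 6.77 and 6.19 in the WT mice and 7.24, 6.61 and 6.54 in the KO mice, which overlapped. Slc4a1, the anion exchanger band 3, had 1.67, 3.71 and 1.19 CPM in WT MEP and 11.1, 34 and 11.7 CPM in KO MEP, highest in mouse 304 (difference 3.06, standard error 0.60, adjusted p = 0.00876). Dmtn, the actin-bundling dematin of the membrane skeleton, rose from 14.5, 31.6 and 12.2 to 74.6, 99.1 and 79.9 CPM (difference 2.06, standard error 0.63, adjusted p = 0.0549). Icam4, an adhesion protein of red cells, had 28.8, 28.9 and 25.04 (WT) and 34.6, 36.5 and 33.4 (KO) CPM in MEP. Its difference of 1.49 (standard error 0.22, adjusted p = 0.00233) is larger than this rise, because it also holds the change in GMP. Car1, carbonic anhydrase I and one of the most abundant MEP messages, went the other way, with 3778, 2636 and 3780.0 CPM in WT MEP and 1727, 1180.0 and 1854 CPM in KO MEP (difference -0.63, standard error 0.17, adjusted p = 0.0351). Hbb-bt, an adult β-globin gene whose fragments can be shared with its near-identical neighbour, had 6.10, 23.8 and 6.32 (WT) and 33.9, 69.1 and 41.3 (KO) CPM in MEP, and its difference of 1.42 (standard error 0.78, adjusted p = 0.263) did not pass.

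Haem synthesis and iron genes moved in both directions. Of 26 genes 9 were called higher and 4 lower, beside 17.1% of all genes over 1 FPKM. The median difference was 0.34, and 0.20 without mouse 304 and without mouse 309. The median contrast was 1.615, 2.13 and 1.64 in the WT mice and 2.31, 2.35 and 2.30 in the KO mice, without overlap. Alas2, the erythroid aminolevulinate synthase, had 1.02, 2.27 and 1.58 CPM in WT MEP and 10.3, 14.7 and 12.9 CPM in KO MEP, with at most 0.748 CPM in GMP (difference 2.82, standard error 0.46, adjusted p = 0.00346). Alas1, the synthase of other cells, rose in GMP from 799, 848 and 718 to 1107, 1398 and 1160.0 CPM and fell in MEP from 37.4, 33.9 and 35.99 to 28.5, 29.7 and 30.1 CPM (difference -0.91, standard error 0.11, adjusted p = 8.82e-04). Uros, a later enzyme of the pathway, rose in MEP from 44.1, 62.4 and 47.6 to 78.8, 89.6 and 83.9 CPM (difference 0.98, standard error 0.13, adjusted p = 0.00146). Tspo2, an erythroid membrane protein, lost some restriction as its low GMP level rose from 0.698, 1.59 and 1.30 to 2.79, 2.80 and 3.41 CPM (difference -1.09, standard error 0.25, adjusted p = 0.017).

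The 46 genes that lost MEP restriction were led by Sh2d4a, an SH2 domain adaptor (chromosome 8 from 68276567 to 68347699). It had 51.3, 72.3 and 64.1 CPM in WT MEP and 2.40, 1.89 and 3.92 CPM in KO MEP and stayed near or below 1 CPM in GMP (difference -4.04, standard error 0.27, adjusted p = 5.38e-05). Acsl6, an acyl-CoA synthetase of long-chain fatty acids (chromosome 11 from 54303798 to 54364756), fell in MEP from 28.4, 56.3 and 34.04 to 3.16, 4.72 and 3.13 CPM. Its difference of -3.21 (standard error 0.92, adjusted p = 0.0434) rests on few GMP counts and did not pass with an offset for transcript length (adjusted p = 0.253), without mouse 301 (adjusted p = 0.186) or without mouse 308 (adjusted p = 0.113). Atp4a, the α subunit of the gastric proton pump, fell from 22.2, 15.2 and 21.9 to 5.39, 3.99 and 5.37 CPM in MEP and rose from 0.648, 0.654 and 0.648 to 1.24, 1.60 and 1.35 CPM in GMP (difference -3.10, standard error 0.27, adjusted p = 1.66e-04). Sept4, a septin of the cytoskeleton, fell from 17.9, 19.5 and 21.5 to 2.32, 2.27 and 2.77 CPM (difference -2.52, standard error 0.30, adjusted p = 7.63e-04). 6030468B19Rik fell from 3.89, 6.56 and 4.69 to 1.495, 1.07 and 1.41 CPM (difference -2.84, standard error 0.74, adjusted p = 0.0299), and Ccdc68 fell from 7.79, 5.36 and 12.3 to 2.03, 1.33 and 2.16 CPM (difference -2.27, standard error 0.60, adjusted p = 0.0791). In all 6 the WT and KO MEP libraries were apart. This follows in part from the choice of genes whose differences did not overlap between WT and KO mice.

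Of the transcription factors that define the branches, some had a called difference and others did not. Gata1, the master factor of MEP, overlapped in MEP (291, 296 and 276 CPM in WT and 280.4, 285 and 282 CPM in KO mice) and fell in GMP from 15.7, 14.4 and 16.1 to 7.07, 9.36 and 8.03 CPM (difference 0.90, standard error 0.11, adjusted p = 9.82e-04). Gfi1b, a transcriptional repressor found in erythroid and megakaryocytic cells, fell in both and farther in GMP (-1.04 against -0.37, difference 0.68, standard error 0.12, adjusted p = 0.00559). Gata2, the factor of early progenitors, fell in both, from 138, 118 and 150.0 to 39.3, 38.3 and 45.7 CPM in GMP and from 113, 91.99 and 87.3 to 23.8, 28.5 and 28.8 CPM in MEP. Its difference of -0.13 (standard error 0.14, adjusted p = 0.588) did not pass. Klf1 had a difference of 0.39 (standard error 0.18, adjusted p = 0.183), with 469, 496 and 468 CPM in KO MEP. Runx1, which serves both lineages, fell in GMP from 142, 144 and 149.9 to 88.5, 97.5 and 89.5 CPM and overlapped in MEP, with 52.2, 42.1 and 44.3 (WT) and 52.5, 47.6 and 46.6 (KO) CPM (difference 0.75, standard error 0.11, adjusted p = 0.00257).

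Across the 25 erythroid and megakaryocytic transcription factors 8 were called higher and 3 lower, beside 17.1% of all genes over 1 FPKM. The median difference of 0.17 was 0.28 without mouse 300. The median contrast was 0.57, 0.59 and 0.65 in the WT mice and 0.86, 0.96 and 0.89 in the KO mice, without overlap. Tfdp2, an E2F partner, rose in MEP from 112, 102 and 122 to 233, 226 and 247 CPM and overlapped in GMP (difference 1.04, standard error 0.09, adjusted p = 1.70e-04). Klf3 rose in MEP and fell in GMP (0.57 and -0.34, difference 0.92, standard error 0.09, adjusted p = 2.50e-04), and Mef2c, a factor of megakaryocytes and lymphoid cells, fell in GMP from 69.7, 70.7 and 75.3 to 45.7, 34.2 and 48.98 CPM (difference 1.01, standard error 0.20, adjusted p = 0.00901). Among 19 myeloid factors tested (Batf3 was not), 18 of them over 1 FPKM, 3 were called higher and 4 lower, beside the same 17.1%. The median difference was -0.22, and was 0.08 without mouse 300 and -0.49 without mouse 305. Gfi1, the repressor needed for neutrophils, rose in GMP from 210.2, 199 and 179 to 328, 445 and 331 CPM (difference -1.47, standard error 0.31, adjusted p = 0.0131). Spi1, which encodes PU.1, rose from 196, 177 and 181 to 265, 295 and 269.4 CPM (difference -0.69, standard error 0.20, adjusted p = 0.0415). Cebpa fell in GMP (log2 fold change -0.41, adjusted p = 0.00106), from 298, 298 and 289 to 212, 235 and 213 CPM, with no called difference (difference -0.41, standard error 0.31, adjusted p = 0.43) and MEP levels of 3.22 CPM or less. Rxra, a retinoid receptor, fell in GMP from 8.25, 6.52 and 8.33 to 1.34, 1.46 and 1.91 CPM and overlapped in MEP, with 14.7, 14.4 and 15.4 (WT) and 16.3, 13.7 and 15.4 (KO) CPM (difference 2.32, standard error 0.18, adjusted p = 1.10e-04). Id2, an inhibitor of bHLH factors, rose in GMP from 3.76, 3.73 and 2.48 to 11.3, 18.3 and 12.8 CPM (difference -2.69, standard error 0.46, adjusted p = 0.0047). Nfil3 had a difference of -1.66 (standard error 0.45, adjusted p = 0.0362).

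Of 20 myeloid cytokine receptors and ligands, 19 of them over 1 FPKM, 5 were called lower and 1 higher, beside 17.1% of all genes over 1 FPKM. The median difference was -0.55 (-0.34 without mouse 300). The median contrast was -3.88, -4.68 and -4.325 in the WT mice and -4.75, -4.895 and -4.87 in the KO mice, without overlap. Osm, which encodes the cytokine oncostatin M, was the widest, with 7.33, 8.90 and 6.43 CPM in WT MEP and 0.153, 0.393 and 0.0522 CPM in KO MEP, against 6.04, 5.19 and 6.01 (WT) and 3.31, 4.09 and 3.005 (KO) CPM in GMP (difference -4.58, standard error 0.43, adjusted p = 2.50e-04). It was about as high in MEP as in GMP of WT mice and GMP-restricted in KO mice. Csf1, the monocyte growth factor, fell in GMP from 29.2, 25.9 and 30.1 to 1.89, 3.38 and 2.64 CPM (difference 2.32, standard error 0.27, adjusted p = 7.25e-04). Csf2ra, the α chain of the GM-CSF receptor, and Tnfrsf1b, a TNF receptor, rose in GMP and fell in MEP (difference -1.20, standard error 0.20, adjusted p = 0.00424, and difference -1.45, standard error 0.11, adjusted p = 8.73e-05). Csf3r, the G-CSF receptor, rose in GMP (log2 fold change 0.81, adjusted p = 7.58e-04), but with 5.42, 0.788 and 1.95 (WT) and 1.21, 2.38 and 1.83 (KO) CPM in MEP its difference of -1.30 (standard error 0.54, adjusted p = 0.146) did not pass. Epor, the erythropoietin receptor, rose in MEP (log2 fold change 0.43, adjusted p = 2.69e-04) and had a difference of 0.09 (standard error 0.16, adjusted p = 0.757).

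Genes that the gates and the stem cell state rest on were also read. Cd34, which sets GMP and MEP apart in the sort, had 484, 452 and 484 CPM in WT GMP and 392, 271 and 351 CPM in KO GMP and no called difference (difference 0.80, standard error 0.72, adjusted p = 0.515). Every KO GMP value was below every WT GMP value. The study found less CD34 on the surface of KO GMP and a higher share of MEP in KO marrow. Whether KO cells passed from one gate to the other, which would bear on every contrast here, was not tested. Fcgr3, which encodes the FcγRIII part of the FcγRII/III gate marker, overlapped in GMP. In MEP it fell from the low levels of 0.914, 0.417 and 0.395 to 0.172, 0.112 and 0.0871 CPM (difference -2.25, standard error 0.41, adjusted p = 0.00615). Kit, which both gates require, had a difference of -0.03 (standard error 0.14, adjusted p = 0.902). Of 19 progenitor and stem cell genes, 16 of them over 1 FPKM, 5 were called higher and 1 lower, beside 17.1% of all genes over 1 FPKM. The median difference of 0.75 was 0.29 without mouse 305. The median contrast was -1.285, -2.41 and -2.26 in the WT mice and -0.70, -0.86 and -0.51 in the KO mice, without overlap. Eng, the TGF-β co-receptor endoglin, fell in GMP from 49.7, 52.3 and 53.2 to 15.9, 13.8 and 15.7 CPM and overlapped in MEP, with 219, 222 and 200.1 (WT) and 208, 207 and 215 (KO) CPM (difference 1.75, standard error 0.09, adjusted p = 2.42e-05). Cd48, a SLAM family marker whose absence helped define long-term stem cells in the study, rose in MEP from 19.3, 12.6 and 15.4 to 33.1, 42.1 and 26.8 CPM (difference 1.35, standard error 0.17, adjusted p = 0.00112). Hlf, a stem cell factor, had a difference of 1.63 (standard error 0.39, adjusted p = 0.0215).

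Interferon response genes, which the poly(I:C) given to both genotypes can induce, moved toward MEP. Of 26 genes, 21 of them over 1 FPKM, 10 were called higher and 1 lower, beside 17.1% of all genes over 1 FPKM. The median difference was 0.46. In KO MEP 12 were called higher, beside 4.18% of the genes tested there, and in KO GMP 4, beside 5.57%. Both shares are over all tested genes, among them genes at 1 FPKM or less that could not be called. The median contrast was 0.27, 0.39 and -0.002 in the WT mice and 0.97, 0.88 and 1.20 in the KO mice. Ifit1 had 0.668, 2.67 and 0.581 CPM in WT MEP and 6.65, 10.5 and 6.38 CPM in KO MEP (difference 2.04, standard error 0.37, adjusted p = 0.00642). Oasl2 had 4.12, 7.42 and 2.51 (WT) and 17.7, 29.3 and 20.01 (KO) CPM (difference 1.87, standard error 0.17, adjusted p = 1.93e-04). Usp18, which dampens interferon signalling, had 2.87, 8.51 and 2.51 (WT) and 10.6, 18.3 and 10.2 (KO) CPM (difference 1.80, standard error 0.31, adjusted p = 0.00471). Rtp4 had 3.59, 9.44 and 2.86 (WT) and 15.5, 18.1 and 13.1 (KO) CPM (difference 1.80, standard error 0.28, adjusted p = 0.00299). In each of these 4 genes the highest WT value came from mouse 305 and the highest KO value from mouse 304, the animals with few Y-linked counts. Without both mice the median difference of the list was 0.44.

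**Figure D5:**
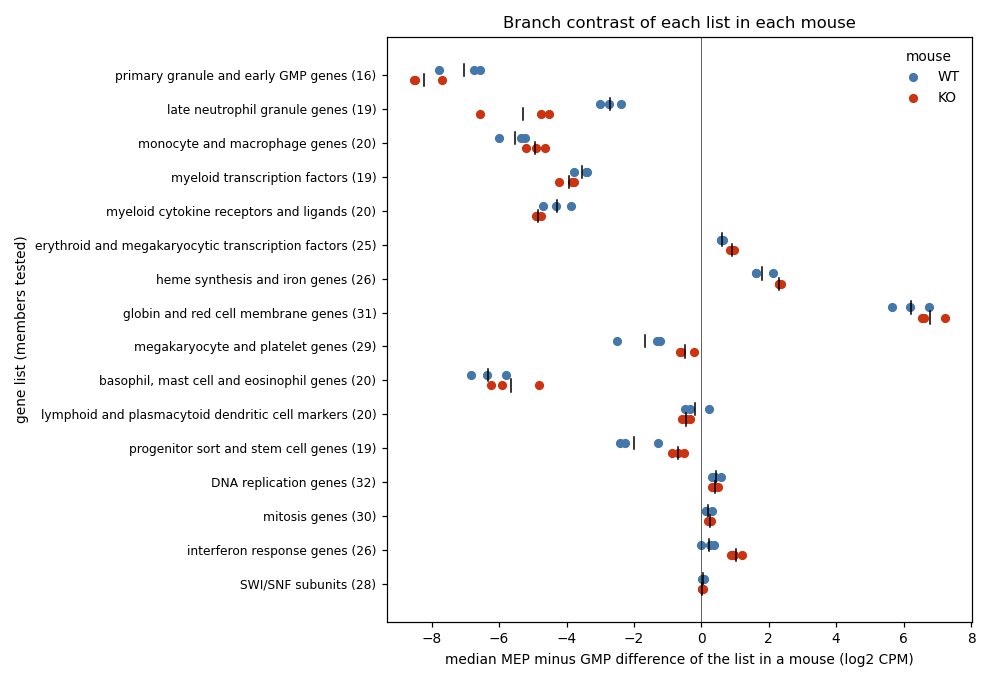
Median MEP minus GMP difference (log2 CPM, x axis) of each gene list (y axis, number of members tested) in each of 3 WT mice (blue) and 3 KO mice (red), with a bar at the mean of the 3. WT and KO mice stand apart in the late neutrophil, monocyte, cytokine receptor, erythroid factor, haem, megakaryocyte, stem cell and interferon lists. In the other lists they overlap, among them DNA replication, mitosis and SWI/SNF.

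Replication, mitosis and SWI/SNF genes had median differences near 0. None of the 32 DNA replication genes was called (median difference -0.06). Kif23, a spindle kinesin, was the 1 of 30 mitosis genes called (difference 0.63, standard error 0.09, adjusted p = 0.00208), with a list median of 0.01. Dpf3 was the 1 of 28 SWI/SNF subunits called (difference 2.08, standard error 0.19, adjusted p = 2.30e-04), with a list median of -0.02, beside 17.1% of all genes over 1 FPKM. The 20 tested lymphoid and plasmacytoid dendritic cell markers, of 24 listed, had no call, but only 8 exceeded 1 FPKM and could be called, and 2 passed the FDR (list median -0.56), with 90.8 to 236 CPM summed over the list in any library.

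In 50 genes the contrast was called in both genotypes with opposite signs, 36 of them turning from the GMP side in WT to the MEP side in KO and 14 the other way. They include antigen receptor gene segments with few counts, such as Ighv1-72, which in KO MEP had 0, 0 and 2.595 CPM. The other genes named here were chosen after their values were seen, for their high levels. Adgrg1, an adhesion receptor of stem cells, fell in GMP from 577, 428 and 544 to 323, 254 and 308 CPM and rose in MEP from 311, 221 and 256 to 499, 501 and 535 CPM, so its contrast turned from -0.98 to 0.80 (difference 1.78, standard error 0.10, adjusted p = 3.18e-05). Chd3, a nucleosome remodeller, did the same, from 104, 106 and 108 to 68.7, 53.1 and 71.9 CPM in GMP and from 79.2, 57.8 and 71 to 160.5, 138 and 169 CPM in MEP (difference 1.90, standard error 0.12, adjusted p = 4.06e-05). In both genes WT and KO libraries of each population were apart. Atp2b4, a plasma membrane calcium pump, changed in MEP alone among the called effects, from 72.8, 97.5 and 70.4 to 196, 206 and 201 CPM (difference 1.43, standard error 0.09, adjusted p = 4.75e-05). Of those turning to GMP, Egfl7, a secreted protein first known from vessels, fell in MEP from 54.9, 47.1 and 46.4 to 7.19, 8.48 and 8.13 CPM with 19.4, 14.3 and 16.9 (WT) and 14.1, 11.3 and 14.3 (KO) CPM in GMP (difference -2.29, standard error 0.15, adjusted p = 5.44e-05). Map3k6, a stress kinase, fell in MEP from 26.3, 24.1 and 21.1 to 3.51, 3.48 and 2.91 CPM (difference -3.31, standard error 0.17, adjusted p = 2.42e-05).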

How the data were processed

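RNA was measured in 3 WT and 3 KO mice, each giving a GMP and an MEP library (poly-A TruSeq, paired 100-base reads, HiSeq). The authors pseudoaligned the reads with kallisto 0.43.1 to Ensembl 84 transcripts (GRCm38) and deposited, per transcript, estimated counts, TPM and the effective length. Whether strand was used is not given in the sources used here, so overlapping genes cannot be told apart. The authors' own analysis used DESeq2 1.18.1.

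Here all transcripts of a gene were added up from the deposited estimated counts, and the sums rounded to whole numbers. They gave 41497753 to 60703872 per library, and depth limits genes of few counts. The deposited effective lengths, averaged per gene with the deposited TPM values as weights, gave FPKM for the level filter and an offset in an alternative, and TPM replaced FPKM in another. Genes were filtered with edgeR 4.0.16 (filterByExpr) and scaled by TMM, and the quasi-likelihood test was fitted with the mouse as a block (R 4.3.3, 4 residual degrees of freedom). KO effects in GMP and in MEP were fitted on 6 libraries each. Called means an FDR of 0.1 (Benjamini-Hochberg), a log2 size over 0.5 and a mean over 1 FPKM. Per-mouse contrasts used log2 CPM with a prior count of 2. Same-animal libraries deviated together (r 0.16 to 0.319 over 12200 genes, above 0.1 in all 6 mice), so the mouse numbers, which the labels give, pair the samples. The test of the difference was run on simulated data, with changes in KO MEP alone and in fewer genes than were called here. That run does not stand for changes in both populations.

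The members and gene lists were chosen with earlier results of these data known. Named genes are autosomal and protein-coding. They are the 6 largest differences in each class of lost, gained and opposite-direction genes among those in which every KO mouse lay beyond every WT mouse, the 4 largest called per list, and a set of lineage factors and markers. Some of these genes are not reported here. Alternatives were another block, scaling, filter, offset, tool (DESeq2 1.42.0), set of libraries and threshold, and each mouse left out. The 4 LT-HSC libraries were not used, and the 6 CMP libraries entered 1 alternative.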

Additional observations from a re-analysis of the deposited data

Results flagged for a closer look

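The KO effect differed between GMP and MEP, by the test of the difference itself, in 4248 genes at an FDR of 0.1. Of the genes called in both populations, 54 were lower in KO GMP and higher in KO MEP, and 61 were higher in KO GMP and lower in KO MEP. With 3 mice in each group, no group was large enough for a test of single samples that stand apart.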

How the results depend on the processing

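Without the replicate block 3954 genes passed an FDR of 0.1, against 4248 with it, and 8 of 88 named genes lost their call (among them S100a4, Ly86, Dmtn, Car1, Ccdc68, Oosp1 and Prss34). With a further block that joins neighbouring animals of the 2 genotypes in the order of the study (300 and 301, 305 and 304, 309 and 308), whose deviations correlated at 0.027, 0.132 and 0.212 and which no label pairs, it was 5178. Leaving out each mouse gave 3011 to 3941 genes. Of the 2090 called genes, 1462 stayed called without each mouse in turn. Lost and gained counts then ranged over 109 to 193 and 365 to 561 on the GMP side and 37 to 61 and 176 to 211 on the MEP side, and opposite-direction counts over 48 to 58 and 43 to 77. The KO effect at an FDR of 0.1 ranged over 4129 to 5435 genes in GMP (5550 with all mice) and 3040 to 5357 in MEP (4638). The lowest count was without mouse 309 in GMP and without mouse 301 in MEP.

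The thresholds set the counts. In the order lost and gained on the GMP side, then lost and gained on the MEP side, a mean contrast of at least 1 gave 246, 668, 88 and 353, one of at least 3 gave 81, 274 and 111 beside 31 lost on the MEP side, and a mean over 1 FPKM in each population, chosen after seeing the data, gave 49, 266, 23 and 121. Restriction taken from WT libraries alone gave 200, 339, 59 and 131 in the same order. Taken from KO libraries alone it gave 93, 529, 38 and 277. A difference over 1 gave 464 genes called higher and 461 lower, 283 gained on the GMP side, 26 lost and 129 gained on the MEP side. KO effects over 1 in each population gave 11 and 5 opposite-direction genes. Gains outnumbered losses on each side under each of these thresholds.

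List medians with each mouse left out ranged over -1.34 to -0.85 for primary granule and early GMP genes, -2.36 to -1.33 for late neutrophil granule genes, -0.51 to 0.44 for monocyte and macrophage genes, -0.49 to 0.0767 for myeloid transcription factors, -0.80 to -0.34 for myeloid cytokine receptors and ligands, 0.12 to 0.28 for erythroid and megakaryocytic transcription factors, 0.20 to 0.34 for heme synthesis and iron genes, 0.15 to 0.66 for globin and red cell membrane genes, 1.13 to 1.61 for megakaryocyte and platelet genes, 0.34 to 1.21 for basophil, mast cell and eosinophil genes, -1.06 to -0.37 for lymphoid and plasmacytoid dendritic cell markers, 0.29 to 1.08 for progenitor sort and stem cell genes, -0.21 to -0.0235 for DNA replication genes, -0.0705 to 0.0160 for mitosis genes, 0.36 to 0.46 for interferon response genes and -0.11 to 0.0035 for SWI/SNF subunits. Without mice 304 and 305, a choice made after seeing the data, they were -0.57 for monocyte genes, -0.61 for myeloid factors, 0.11 for erythroid and megakaryocytic factors, -1.17 for lymphoid markers, 0.29 for stem cell genes and -0.0545 for SWI/SNF subunits. With median-of-ratios scaling and with DESeq2 erythroid and megakaryocytic factors had 0.11 and 0.12 and SWI/SNF subunits -0.0820 and -0.0819, and the latter had -0.15 with the length offset and -0.0440 with all 18 precursor libraries. Lymphoid markers had -0.85 without a filter. Of 1400 named-gene values under other settings 1309 stayed on their side of the FDR threshold, whether past it or not, 69 no longer passed, 21 newly passed and 1 reversed (Prss34, which ranged from -0.44 without mouse 308 to 2.52 without mouse 301). The cause of these shifts was not tested. Genes near 1 CPM in the lower population rest on few counts, which limits the size of their contrast.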

Other observations

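Further gene groups were drawn up after the results had been seen, so their counts are descriptions without a test, beside 17.1% of all genes over 1 FPKM called in either direction. Of 19 genes of actin and its regulators 13 were called lower and none higher (median difference -0.68), with 10 called higher in KO GMP and 4 lower in KO MEP. Of 6 phagocyte NADPH oxidase subunits 5 were called lower (median -1.68), with 5 higher in KO GMP. Of 23 genes of glycolysis and glucose uptake 10 were called lower and 2 higher (median -0.39), while 20 hypoxia response genes had 6 lower and 2 higher and a median of -0.04. Vegfa, the vascular growth factor, fell in MEP from 16.02, 14.2 and 15.8 CPM in WT to 1.88, 2.55 and 1.58 CPM in KO mice (difference -3.34, standard error 0.17, adjusted p = 2.42e-05).

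Of 18 p53 target genes 7 were called higher and none lower (median difference 0.31), and 7 were called higher in KO MEP. In KO GMP 3 were called higher and 2 lower (Btg2 and Perp). Cdkn1a, which encodes the cell cycle inhibitor p21, had 1.16, 1.60 and 1.67 CPM in WT MEP and 13.1, 13.5 and 11.98 CPM in KO MEP, without overlap. In GMP it had 9.74, 8.47 and 10.6 CPM in WT and 18.2, 13.8 and 18.4 CPM in KO mice (difference 2.34, standard error 0.22, adjusted p = 2.48e-04). Of 18 cholesterol synthesis genes 2 were called lower and none higher (median -0.09).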
